A study of Mus musculus with 4 samples.

Results

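The histone genes of mouse hematopoietic stem cells (HSC) were followed through 4 single-cell libraries. They were taken as every symbol in the count tables that begins Hist1h to Hist4h, H2af, H3f3 or H1f and that held 20 or more unique molecular identifiers (UMIs, 1 per captured RNA molecule) summed over all kept cells. This gave 68 of the 31053 genes listed. Another 15 symbols of the same form fell under 20 UMIs, of which 5 were at 0, with Hist1h3b just outside at 19 UMIs and Hist2h3c2 just inside at 22 UMIs. The kind of histone was read from the symbol alone. Symbols of Hist1h to Hist4h were counted as replication-dependent, and those of H2af, H3f3 and H1f as replacement. By this rule 57 of the 68 genes were replication-dependent histones and 10 were replacement histones (H1f0, H1fx, H2afj, H2afv, H2afx, H2afy, H2afy2, H2afz, H3f3a and H3f3b). H3f3aos was an antisense RNA that overlaps H3f3a and was counted apart. The label does not show how a given gene is regulated. The replication-dependent genes comprised 5 of the linker histone H1, 16 of H2A, 16 of H2B, 10 of H3 and 10 of H4.

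The cells were long-term HSC (LT-HSC) and short-term HSC (ST-HSC) sorted from bone marrow of 2 male mice aged 14 weeks, of the strain Tie2-bG-Micm x RosaYFP, which all groups share. Both gates took lineage-negative, Kit-positive, Sca1-positive, CD48-negative cells, with CD150 present on LT-HSC and absent from ST-HSC, and each mouse gave 1 library per gate. Slamf1, the gene of CD150, lay at 34.7 and 21.9 UMIs per 1e6 (CPM) in LT-HSC of mice 1 and 2, against 0.825 and 1.40 CPM in ST-HSC of the same mice. Cd48 lay at 0 and 2.19 CPM in LT-HSC, against 12.95 and 18.0 CPM in ST-HSC. Kept cells numbered 22 and 1217 in LT-HSC of mice 1 and 2, and 2633 and 1707 in ST-HSC of the same mice, with 115305, 13249904, 27870823 and 13566531 UMIs in that order. The mouse 1 LT-HSC library differed from the rest, since 22 of its 39553 barcodes passed as cells and 36 of the 68 histone genes held no UMI there, while all 68 held UMIs in each of the other libraries. Its detection floor at 3 counts was 26.0 CPM, against 0.108 to 0.226 CPM in the others. The main results that rest on it are therefore given also with all its barcodes summed. That sum held 13575402 UMIs, with a median of 285 UMIs per barcode. Nearly all of it thus comes from barcodes that failed the cell filter, so it is not a second set of LT-HSC cells. Mouse 2 LT-HSC and mouse 2 ST-HSC shared 1 kept barcode, ST-HSC of mice 1 and 2 shared 1, and the other library pairs shared 0. Since there are 2 animals, p-values describe the spread between these libraries only.

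Histones wind DNA into nucleosomes, each built on a core of H2A, H2B, H3 and H4, with the linker histone H1 at the entry of the DNA. The replication-dependent genes lie in clusters, lack introns and are transcribed mainly in S phase, when new chromatin is packed. Their mRNAs usually end just after a stem-loop that is bound by the protein Slbp, and carry no poly(A) tail. Replacement histones are made outside S phase as well, from separate genes with polyadenylated mRNAs, and serve in transcription, DNA repair and repression. The 3' kit used here captures RNA through poly(A) tails, so the values below count captured molecules, and a share of UMIs is not a share of the histone mRNA in a cell. Most HSC in adult marrow are at rest, so cells were set apart by a UMI of Mki67, a nuclear protein of cycling cells, or Top2a, a DNA topoisomerase made mainly in G2 and mitosis.

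The end of the mRNA was taken from the annotation, as far as its transcripts reach. In GENCODE vM21 transcripts (GRCm38), 38 of the 57 replication-dependent genes held the 16-base stem-loop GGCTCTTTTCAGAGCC with at most 2 mismatches (the hairpin found exactly in most of these genes), against 55 of 21819 other protein-coding genes (0.252%). The exact sequence stood in 25 genes, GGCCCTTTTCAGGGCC in 6, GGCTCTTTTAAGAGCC in 5, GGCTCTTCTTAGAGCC in 1 and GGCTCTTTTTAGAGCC in 1. The annotated transcript ran on for 151 to 4884 bases after the stem-loop in 18 genes, called long ends here, and for 3 to 74 bases in 20 genes, called short ends, while 19 genes had no match. Several genes with no match, such as Hist1h2bl (chr13:21715763-21716143) and Hist1h2ai (chr13:21716422-21716814), have short annotated transcripts. Others, such as Hist1h2bc (chr13:23684199-23692908), span longer stretches. A transcript annotated without its last bases gives no match, so these 19 genes are not a kind of mRNA end. The boundary of 100 bases was chosen after the lengths were seen. The stem-loops below are those of genes whose values are described further on, with capitals marking the 16 bases of the stem-loop and small letters up to 5 bases on either side. The annotated transcript continues for 2010, 1643, 840 and 770 bases after the stem-loop in Hist1h2ac, Hist3h2a, Hist1h1c and Hist1h4d, and ends 11, 74, 23 and 3 bases after it in Hist1h2ab, Hist1h3c, Hist1h2ag and Hist1h2ap.
Hist1h2ac: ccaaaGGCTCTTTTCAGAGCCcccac
Hist3h2a: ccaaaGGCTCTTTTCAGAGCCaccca
Hist1h1c: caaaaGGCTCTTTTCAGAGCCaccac
Hist1h4d: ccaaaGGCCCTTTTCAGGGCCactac
Hist1h2ab: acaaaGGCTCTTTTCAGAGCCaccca
Hist1h3c: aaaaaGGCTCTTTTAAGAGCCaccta
Hist1h2ag: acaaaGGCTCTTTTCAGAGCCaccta
Hist1h2ap: aaaaaGGCTCTTTTCAGAGCCatc

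Because the counts come from transcript ends, near-identical genes may share reads. For 30 of the 68 genes, all of them replication-dependent, more than 50% of the 60-base stretches in the last 400 transcript bases also occurred in another gene, and for 23 genes none did. Hist1h2ap shared all such stretches, chiefly with Hist1h2ao, and Hist1h1e shared all of its stretches with Hist1h2be, whose annotated transcript overlaps it on the same strand. Hist1h3e and Hist1h3f shared 82.7% and 83.9% with each other. The values of these genes are therefore uncertain as to which copy gave them.

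The replacement histones gave most of the histone UMIs in every library. Summed over 10 genes they reached 5837 and 6044 CPM in LT-HSC of mice 1 and 2, against 7304 and 7399 CPM in ST-HSC of the same mice. The 57 replication-dependent genes summed to 494 and 575 CPM in LT-HSC, against 745 and 540 CPM in ST-HSC. With all barcodes of mouse 1 LT-HSC its replication-dependent sum was 745 CPM and its replacement sum 5992 CPM. Replication-dependent genes thus held 7.81% (95% exact binomial interval 5.97 to 10.0) and 8.69% (8.51 to 8.88) of histone UMIs in LT-HSC of mice 1 and 2, against 9.25% (9.13 to 9.37) and 6.81% (6.66 to 6.96) in ST-HSC of the same mice. The share in mouse 2 ST-HSC was the lowest and that in mouse 1 ST-HSC the highest, so the gates overlapped. With all barcodes of mouse 1 LT-HSC its share was 11.1% (10.9 to 11.3). Intervals cover counting error only.

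Cells with a UMI of Mki67 or Top2a held more RNA of both kinds of histone, and the summed replication-dependent level differed by the larger ratio in each library. There were 219 such cells in mouse 2 LT-HSC, 583 in mouse 1 ST-HSC and 223 in mouse 2 ST-HSC, or 18.0%, 22.1% and 13.1% of kept cells. Mouse 1 LT-HSC had 2 and entered no class comparison. Summed replication-dependent RNA lay at 967, 1050 and 887 CPM in cells with such a UMI in mouse 2 LT-HSC and ST-HSC of mice 1 and 2, against 448, 622 and 465 CPM in cells without one, in the same order. Replacement histones lay at 7873, 8209 and 9020 CPM in cells with, against 5447, 6941 and 7047 CPM in cells without. The replication-dependent share of histone UMIs was 10.9%, 11.3% and 8.95% in cells with, against 7.59%, 8.23% and 6.19% in cells without, higher in all 3 libraries and beyond the counting intervals in each.

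Per gene, cells with and cells without were compared by edgeR's quasi-likelihood test on UMI sums with the library as a block, and p-values were adjusted (Benjamini-Hochberg) over all 12190 genes tested. Of the 58 histone genes with enough counts to be tested, 39 rose, against 17.3% of all genes tested, and 3 fell (Hist1h2ac, Hist3h2a and Hist3h2ba), against 13.4%. Over all 68 genes, tested or not, 47 were higher in cells with in all 3 libraries, against 24.0% of the 13699 genes with 20 or more UMIs, 5 were lower in all 3, against 31.7%, and 16 were mixed. In 39 of the 68 every value of cells with lay above every value of cells without, against 13.6% of those genes, and in 2 every value lay below, against 12.5%. The median log2 fold change was 1.15 over the 47 replication-dependent genes tested and 0.53 over the 10 replacement genes, beside -0.03 over all genes tested. Some scarce genes reached the minimum of 20 UMIs only through cells with such a UMI, so the minimum favored a rise in them. The 13699 genes passed the same minimum. DESeq2, without a filter on low counts, called 33 of the 68 higher, against 6.45% of 19292 genes, and 1 lower (Hist1h2ac), against 2.45%.

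**Figure D1:**
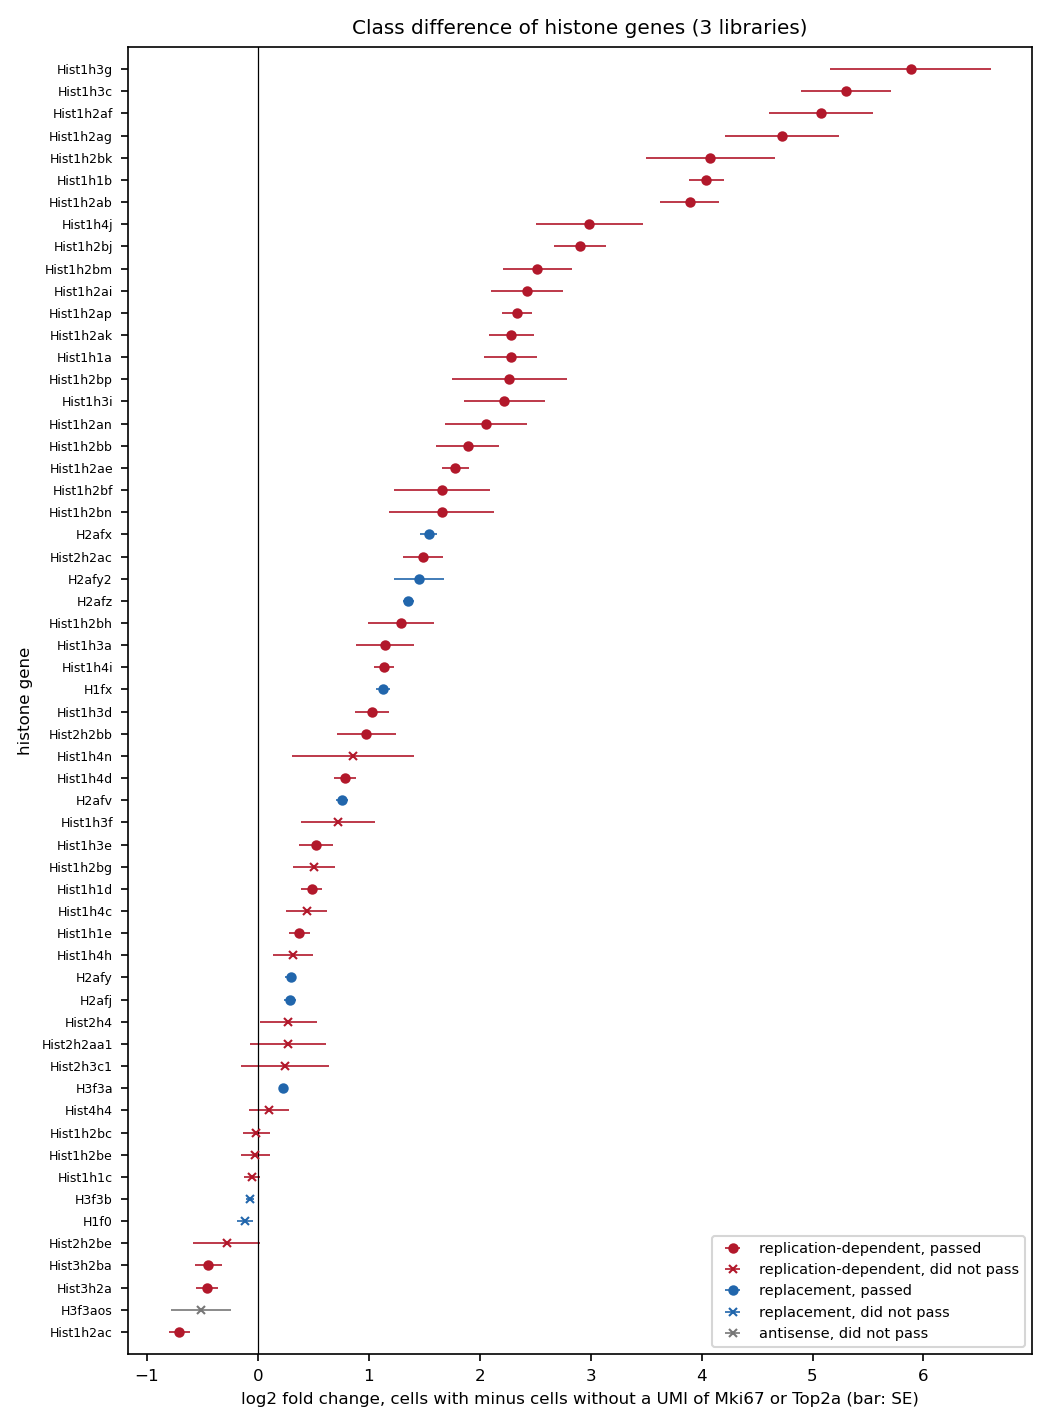
Log2 fold change (cells with minus cells without a UMI of Mki67 or Top2a, horizontal axis) of each of the 58 histone genes tested (rows), with bars for the SE from 3 libraries. Points passed the adjusted p of 0.05 and crosses did not. Replication-dependent genes span -0.71 (Hist1h2ac) to 5.88 (Hist1h3g), while replacement genes span -0.11 (H1f0) to 1.54 (H2afx).

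Among linker histones, Hist1h1b and Hist1h1c behaved differently. Hist1h1b, a replication-dependent H1 (chr13:21779883-21780625, minus strand), lay at 61.9, 54.1 and 49.65 CPM in cells with in mouse 2 LT-HSC and ST-HSC of mice 1 and 2, against 1.90, 4.47 and 2.78 CPM in cells without. The groups were far apart in every library, with a log2 fold change of 4.04 (SE 0.15, adjusted p 1.01e-12 by edgeR). Hist1h1c (chr13:23738808-23740367, plus strand) lay at 42.9, 46.8 and 45.5 CPM in cells with, against 49.3, 47.6 and 45.0 CPM in cells without. Its groups overlapped and its log2 fold change of -0.05 (SE 0.07) did not pass. Hist1h1a, Hist1h1d and Hist1h1e rose by 2.28 (SE 0.24), 0.49 (SE 0.10) and 0.37 (SE 0.09) on the log2 scale.

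The upstream sequences of this pair of genes are shown because they share motifs and differ in class difference. They are the 250 bases before the gene's start, from RefSeq (GRCm38.p6), at chr13:21780626-21780875 on the minus strand for Hist1h1b and chr13:23738557-23738806 on the plus strand for Hist1h1c. Capitals mark CCAAT and its reverse complement ATTGG. They also mark TATAAA, the usual TATA box, and the H1 box AAACACA, an element known from H1 promoters.
Hist1h1b: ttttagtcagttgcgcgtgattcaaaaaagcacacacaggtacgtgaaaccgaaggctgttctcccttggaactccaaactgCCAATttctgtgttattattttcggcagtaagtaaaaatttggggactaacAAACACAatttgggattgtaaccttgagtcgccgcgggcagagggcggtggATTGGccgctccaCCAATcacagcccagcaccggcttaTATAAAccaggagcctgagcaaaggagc
Hist1h1c: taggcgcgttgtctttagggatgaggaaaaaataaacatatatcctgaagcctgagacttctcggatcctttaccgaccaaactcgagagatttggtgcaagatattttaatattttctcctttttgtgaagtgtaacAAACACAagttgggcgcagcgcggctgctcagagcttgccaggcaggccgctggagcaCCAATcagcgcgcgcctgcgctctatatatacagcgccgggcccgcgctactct
Both held the H1 box. Hist1h1b held 3 CCAAT motifs and 1 TATAAA, and Hist1h1c held 1 CCAAT motif and no TATAAA. Only these exact letters were searched, so the unmarked TATATATA near the end of the Hist1h1c sequence was not counted. Hist1h1c is therefore not shown to lack a TATA box. In windows from 250 bases before to 50 after the start, and on both strands, 60 of the 68 genes matched a RefSeq promoter. CCAAT or ATTGG stood in 45 of 51 replication-dependent promoters and 6 of 9 replacement promoters, against 37.4% of all 32851 promoters. TATAAA or TTTATA stood in 28 of 51 and 1 of 9, against 13.6%, and the H1 box or its reverse complement TGTGTTT in 4 of the 5 replication-dependent H1 promoters, against 7.18%. A match is a description of the letters and not of a bound site.

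Of the replication-dependent H2A genes, 9 of 12 tested rose and 2 fell. Hist1h2ae, the most abundant of them (chr13:23570517-23571220, minus strand), lay at 231, 194 and 189.5 CPM in cells with, against 46.1, 80.9 and 52.2 CPM in cells without (log2 fold change 1.78, SE 0.12). Hist1h2ap lay at 82.5, 179 and 62.1 CPM, against 8.51, 45.7 and 10.6 CPM (2.33, SE 0.13). Both genes were higher in cells with in every library, although the level of Hist1h2ap in cells with differed between the mice, as described below. Scarcer H2A genes rose further, with Hist1h2af, Hist1h2ag and Hist1h2ab at log2 fold changes of 5.08, 4.73 and 3.89. Hist1h2af and Hist1h2ag held 64 and 56 UMIs in cells with, against 5 and 6 in cells without. They reached the minimum of 20 UMIs only through cells with, so their values are no separate support for a rise. Hist1h2ac (chr13:23681467-23683948, minus strand) went the other way, at 25.1, 55.1 and 33.1 CPM in cells with, against 59.9, 82.1 and 48.3 CPM in cells without (-0.71, SE 0.10, adjusted p 2.46e-05 by edgeR). It was lower in cells with in each library, but the ranges of the groups overlapped. Hist3h2a, on chromosome 11, lay at 19.6, 25.3 and 20.3 CPM, against 31.8, 32.4 and 28.6 CPM (-0.45, SE 0.10), with no overlap.

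Of the H2B genes, 9 of 14 tested rose and 1 fell. Hist1h2bk, Hist1h2bj and Hist1h2bm had log2 fold changes of 4.08 (SE 0.59), 2.91 (SE 0.23) and 2.52 (SE 0.31), on 28, 213 and 119 UMIs in all. Hist1h2bk, with 24 UMIs in cells with and 4 in cells without, reached the minimum of 20 UMIs only through cells with. Hist3h2ba fell by 0.45 on the log2 scale (SE 0.12), at 11.3, 16.1 and 14.1 CPM in cells with, against 18.8, 19.5 and 22.0 CPM in cells without. This gene lies beside Hist3h2a on chromosome 11. Hist1h2bc, the most abundant H2B gene, lay at 23.6, 65.0 and 53.8 CPM in cells with, against 43.0, 56.6 and 48.6 CPM in cells without, and did not pass (-0.01, SE 0.12). Its direction differed between the gates.

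Of the H3 genes, 6 of 8 tested rose and none fell, and of the H4 genes, 3 of 8 rose and none fell. Hist1h3g had 30 UMIs in cells with and 1 in cells without, a pooled ratio of 90.2 (95% counting interval 14.99 to 3680), and Hist1h3c had 103 and 7 UMIs, a ratio of 44.2 (20.7 to 113). Both reached the minimum of 20 UMIs only through cells with, so the minimum favored high ratios here. These ratios are no separate support for a rise. Hist1h3d, more abundant, lay at 13.8, 16.9 and 14.9 CPM in cells with, against 7.51, 8.94 and 5.56 CPM in cells without (log2 fold change 1.03, SE 0.15). Among H4 genes Hist1h4i led by UMIs, at 53.0, 53.7 and 57.9 CPM, against 19.1, 28.1 and 26.6 CPM (1.14, SE 0.09). Hist1h4d followed, at 43.5, 36.5 and 24.4 CPM, against 20.5, 24.2 and 14.5 CPM (0.78, SE 0.10). H3 and H4 proteins are each made from many near-identical gene copies, so a change in 1 gene is not a change in the protein.

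The large increases were found in short-end genes and in genes with no stem-loop match. Several of these, such as Hist1h3g and Hist1h2af, reached the minimum of 20 UMIs only through cells with such a UMI. Of all 20 short-end genes, 15 were higher in cells with in all 3 libraries, 1 was lower in all (Hist2h2aa2, on 24 UMIs) and 4 were mixed, with a median ratio of pooled levels of 3.29. Of all 18 long-end genes, 11 were higher in all, 3 lower in all and 4 mixed, with a median ratio of 1.35. Over the 13699 genes with 20 or more UMIs, 24.0% were higher in all and 31.7% lower in all. Long-end genes were thus not lower more often than other genes. Of the 19 genes with no match, 13 were higher in all, none lower in all and 6 mixed. Their median ratio was 2.82, beside 0.97 over the 13699 genes. Several of these 19 have short annotated transcripts, so their mRNA ends are not known from the annotation. Others span longer stretches of the genome, and the 19 are thus a mixed set. Among these longer genes Hist1h2bc, Hist2h2be and Hist2h4 had pooled ratios of 1.04, 0.834 and 1.19, while Hist1h2br had 2.82. The 3 genes with adjusted p under 0.05 that fell, Hist1h2ac, Hist3h2a and Hist3h2ba, were all long-end genes, whose transcripts run on for 2010, 1643 and 169 bases. They were 3 of 17 long-end genes tested, near the 13.4% of all genes tested that fell, so this count is not a result about long ends. Sequence sharing went along with the classes: no short-end gene had an end free of shared stretches, while 10 long-end genes did, of which 6 were higher in all, 2 lower in all and 2 mixed. The difference between the classes was not tested, since the boundary was drawn with the values known.

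**Figure D2:**
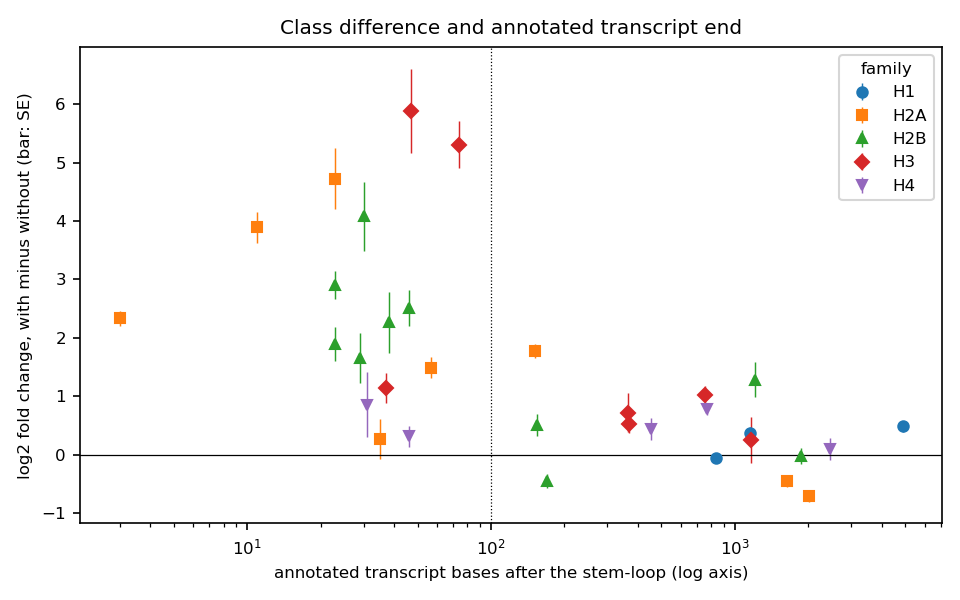
Annotated transcript bases after the stem-loop (horizontal, log axis) against the log2 fold change of cells with minus cells without a UMI of Mki67 or Top2a (vertical, bars SE, 3 libraries), for the tested genes with a stem-loop, by family. The dotted line marks 100 bases. Log2 fold changes above 1.78 stand only left of the line, and those below 0 only right of it.

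Of the 10 replacement histones, 8 rose and none fell. H2afz, the variant H2A.Z of promoters and heterochromatin, lay at 1890, 1563 and 1819 CPM in cells with, against 669, 682 and 721 CPM in cells without (log2 fold change 1.36, SE 0.05, adjusted p 3.23e-13 by edgeR). H2afx, whose product is phosphorylated at DNA breaks, lay at 195, 134.5 and 136.5 CPM, against 52.7, 54.5 and 50.7 CPM (1.54, SE 0.08). H1fx, a linker histone, lay at 183, 88.2 and 117 CPM, against 71.3, 46.0 and 56.2 CPM (1.13, SE 0.06), and H2afv, a second H2A.Z gene, at 526, 508 and 556 CPM, against 281, 324 and 347 CPM (0.76, SE 0.05). In each of these genes the groups did not overlap. H2afy2, one of the macroH2A genes, rose by 1.45 on the log2 scale (SE 0.22) from low levels, at 8.28, 7.78 and 10.8 CPM in cells with, against 2.30, 3.72 and 3.14 CPM in cells without.

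The other replacement genes changed less or did not pass. H3f3a and H3f3b encode the same H3.3 protein. H3f3a lay at 2267, 2387 and 2629 CPM in cells with, against 1813, 2201 and 2291 CPM in cells without (log2 fold change 0.23, SE 0.04, passed). H3f3b lay at 1807, 1913 and 1825 CPM, against 1799, 2186 and 1917 CPM (-0.07, SE 0.04, adjusted p 0.19 by edgeR). H2afy, the other macroH2A gene, lay at 687, 1302 and 1608 CPM, against 494.5, 1190 and 1350 CPM (0.30, SE 0.05), and H2afj rose by 0.29 (SE 0.06). H1f0, a linker histone of differentiated and resting cells, lay at 67.1, 56.0 and 48.8 CPM, against 77.2, 53.8 and 64.0 CPM, and did not pass (-0.11, SE 0.07).

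Depth and the markers of some other cells differed between the classes, the markers not all in the same direction. The median cell with such a UMI held 14351, 12196 and 9611 UMIs in mouse 2 LT-HSC and ST-HSC of mice 1 and 2, against 9960, 9452.5 and 7313 UMIs for cells without. After thinning each cell to 2000 UMIs and calling the class again, 75, 192 and 83 cells remained in it, 33 histone genes could be tested, of which 14 rose, against 5.08% of all genes tested, and none fell, against 1.71%, with 1 lower at an unadjusted p under 0.05. Without the 5% of cells with most UMIs in each library, 15 of 46 tested rose, against 8.83%, and 3 fell, against 4.17%. Summed markers of red cells (6 genes) lay at 11.3, 108 and 927 CPM in cells with, against 9.11, 10.2 and 36.9 CPM in cells without, and those of basophils and mast cells (4 genes) at 6.74, 4.52 and 438 CPM, against 2.30, 22.4 and 5.20 CPM. Those of the neutrophil lineage (8 genes) lay at 6.13, 1165 and 610 CPM, against 186, 332 and 2145 CPM. T and NK cell markers (3 genes) lay at 56.7, 119 and 166 CPM in cells with, against 21.4, 76.6 and 87.6 CPM in cells without. They were higher in all 3 libraries, but over all kept cells the sum was nearly all Nkg7. Nkg7 gave 30.1, 88.4 and 101 CPM in the same order of libraries, with Cd3e and Cd3g at 0.359 CPM or less. Macrophage markers (5 genes) lay at 1.23, 4.02 and 4.97 CPM in cells with, against 7.21, 8.29 and 9.33 CPM. B cell markers (5 genes) lay at 38.3, 40.5 and 37.7 CPM, against 45.8, 43.6 and 52.3 CPM. Both were lower in all 3 libraries. Megakaryocyte markers (3 genes) were mixed, at 133, 96.1 and 59.6 CPM, against 119, 140 and 124 CPM. The 7 genes that mark the stem and progenitor gates lay at 626, 769 and 847 CPM in cells with, against 839, 981 and 1058 CPM in cells without, lower in all 3. With the 9, 30 and 24 cells left out that held 10 or more UMIs of such markers of other types, 38 of 56 tested rose, against 17.3% of genes, and 3 fell, against 12.6%. No doublet caller was run.

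The share of cells with a UMI depends on depth, and background RNA in droplets could not be gauged, because no cell type here lacks histones. A UMI of any replication-dependent gene was found in 94.98%, 96.4% and 88.3% of cells with, against 90.1%, 92.7% and 87.4% of cells without. After thinning to 2000 UMIs these shares were 61.3%, 65.1% and 55.4% in cells with, against 51.9%, 60.02% and 52.4% in cells without. Thinned shares for Hist1h1b were 14.7%, 8.33% and 13.3% in cells with, against 0.525%, 0.901% and 0.924% in cells without. The exact 95% intervals of Hist1h1b did not overlap in any of the 3 libraries.

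Several histone genes that fell or did not pass by class were low in S-rich cells. Within each library the 10% of kept cells with the largest share of UMIs from 24 S phase genes, and separately from 20 G2 and M phase genes, were set against the rest of the cells. The ranking by G2 and M genes was added after other results were seen, and the same cell could be in both top groups. In S-rich cells 30 of 55 tested histone genes rose, against 22.7% of all genes tested, and 7 fell, against 21.0%. In cells rich in G2 and M genes 45 of 59 rose, against 16.3%, and none fell, against 12.6%, with 1 lower at an unadjusted p under 0.05.

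The 7 genes that were lower in S-rich cells were Hist1h2bc, Hist3h2ba, Hist3h2a, Hist1h2ac, Hist1h1c, H1f0 and H3f3b. All but H1f0 and H3f3b were counted as replication-dependent, from their symbols. Hist1h2bc lay at 5.51, 9.85 and 7.06 CPM in S-rich cells of mouse 2 LT-HSC and ST-HSC of mice 1 and 2, against 44.6, 68.2 and 57.4 CPM in the rest (log2 fold change -2.84, SE 0.12, adjusted p 4.75e-10 by edgeR). In cells rich in G2 and M genes it lay at 37.5, 178 and 106 CPM, against 38.3, 39.5 and 40.8 CPM in the rest (1.45, SE 0.25). Its level was thus low in S-rich cells of every library and high in G2- and M-rich cells of both ST-HSC libraries, while the LT-HSC library showed no such excess. Hist1h1c lay at 23.4, 23.1 and 24.96 CPM in S-rich cells, against 52.5, 51.9 and 48.9 CPM (-1.06, SE 0.10), and at 40.0, 86.5 and 62.6 CPM in G2- and M-rich cells, against 49.1, 41.0 and 42.4 CPM (0.58, SE 0.18, adjusted p 0.025 by edgeR). Hist3h2a lay at 11.5, 8.94 and 8.004 CPM in S-rich cells, against 32.3, 34.3 and 30.7 CPM (-1.75, SE 0.14), and in G2- and M-rich cells it did not pass (-0.28, SE 0.11). Hist1h1b and Hist1h2ae rose in both rankings, Hist1h1b to 85.8, 78.8 and 46.1 CPM in S-rich cells, against 3.07, 7.49 and 4.63 CPM, and to 101, 108 and 65.4 CPM in G2- and M-rich cells, against 1.95, 4.05 and 2.81 CPM.

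**Figure D3:**
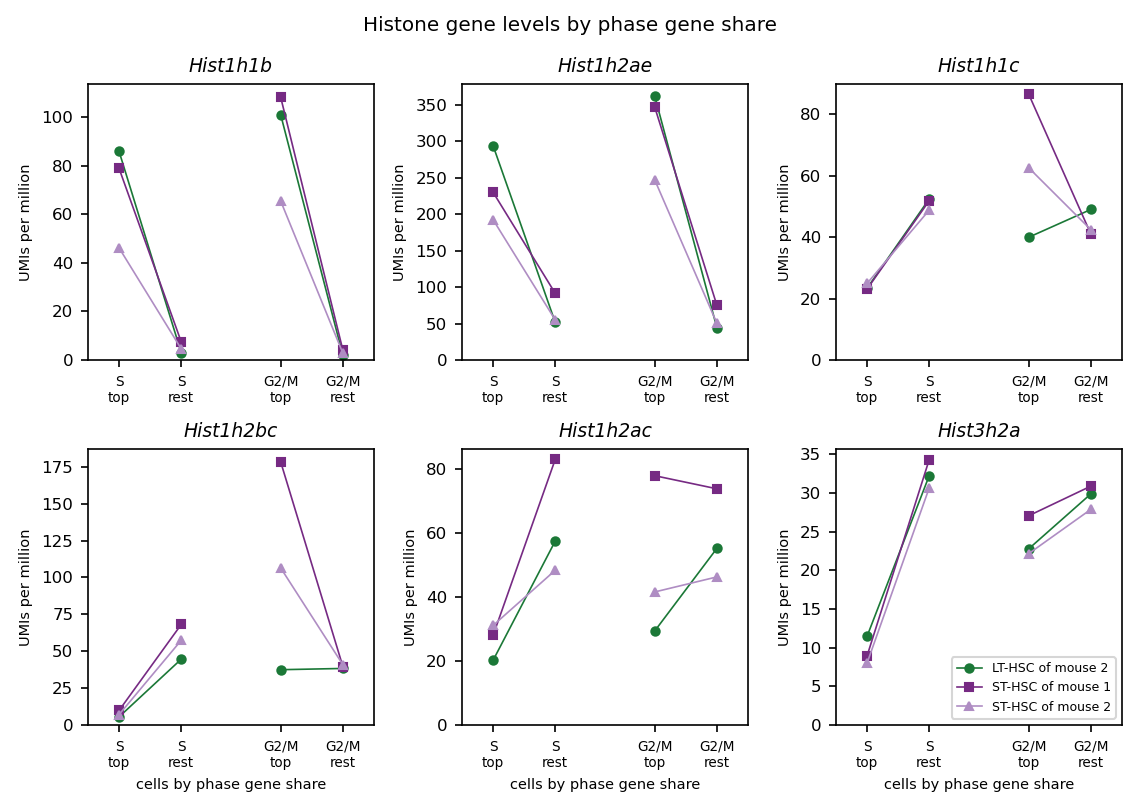
UMIs per 1e6 of 6 replication-dependent histone genes in the 10% of cells with the largest share of S phase genes and in the rest (left of each panel), and likewise for G2 and M phase genes (right), with 1 line per library. Hist1h1b and Hist1h2ae were high in both top groups. Hist1h1c, Hist1h2bc, Hist1h2ac and Hist3h2a were low in S-rich cells of all 3 libraries, and Hist1h2bc reached 178 and 106 CPM in G2- and M-rich ST-HSC of mice 1 and 2, against 37.5 CPM in mouse 2 LT-HSC.

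Between the gates, histone genes were called about as often as all genes tested. Of 59 tested, 1 was higher in LT-HSC (H1fx), against 3.6% of the 12656 genes tested, and 3 were lower (H2afy, Hist1h2bg and Hist1h3e), against 3.13%. H2afy (chr13:56073619-56136361, minus strand), whose macroH2A protein carries a large extra domain and is known from silenced chromatin, had levels of 442 and 542 CPM in LT-HSC of mice 1 and 2, against 1222 and 1396 CPM in ST-HSC of the same mice. The gates did not overlap, with a log2 fold change of -1.40 (SE 0.20, adjusted p 1.28e-09 by edgeR). With all barcodes of mouse 1 LT-HSC, which gave 464 CPM there, it was -1.27 (SE 0.20, adjusted p 0.0013). Without mouse 2 LT-HSC the log2 fold change was -1.68 (SE 0.25) and the call was not kept. The LT-HSC side of that fit rests on the 22 cells of mouse 1, too few to read a lost call as a weaker difference. The lower level held in both classes of cells, at 687 CPM in cells with a UMI of Mki67 or Top2a in mouse 2 LT-HSC, against 1302 and 1608 CPM in those of ST-HSC. In cells without one it was 494.5 CPM, against 1190 and 1350 CPM.

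H1fx had 95.4 and 98.7 CPM in LT-HSC, against 58.1 and 67.1 CPM in ST-HSC (log2 fold change 0.64, SE 0.18, adjusted p 0.0094 by edgeR), on 11 UMIs in mouse 1 LT-HSC. With all its barcodes that library gave 93.0 CPM and a log2 fold change of 0.73 (SE 0.16, adjusted p 0.011). Without mouse 1 ST-HSC, without mouse 2 ST-HSC or without mouse 2 LT-HSC the call was lost (adjusted p 0.53, 0.13 and 0.80 by edgeR). Hist1h2bg had 0 UMIs in mouse 1 LT-HSC and 3.70 CPM in that of mouse 2, against 9.37 and 7.52 CPM in ST-HSC (-1.22, SE 0.35). With all barcodes it did not pass (-0.51, adjusted p 0.41 by edgeR). Hist1h3e lay at 34.7 CPM in mouse 1 LT-HSC, on 4 UMIs, and 6.49 CPM in that of mouse 2, against 16.7 and 9.95 CPM in ST-HSC. Its fitted value of -0.93 (SE 0.29) goes against the mean levels, and with all barcodes it was 0.09 (SE 0.41). With all barcodes, H1fx alone was higher, against 5.04% of genes tested, and H2afy alone lower, against 3.82%. Markers of other cells differed between the gates: those of the neutrophil lineage summed to 26.0 and 142 CPM in LT-HSC of mice 1 and 2, against 570 and 1872 CPM in ST-HSC, with 5 and 1 of the 8 genes at 0 in LT-HSC. T and NK cell markers summed to 8.67 and 30.1 CPM in LT-HSC, with 2 of 3 genes at 0 in each, against 88.8 and 102 CPM in ST-HSC. Nkg7 alone gave 88.4 and 101 CPM of the ST-HSC sums, with Cd3e and Cd3g at 0.359 CPM or less. Without cells that held 10 or more UMIs of other-type markers, H1fx alone was higher, against 3.8% of genes, and the 3 lower genes were joined by Hist1h2ap, against 2.89%. DESeq2 on kept cells called none higher, with 0 at an unadjusted p under 0.05 and 0.145% of genes called, and 1 lower (H2afy), against 0.124%.

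**Figure D4:**
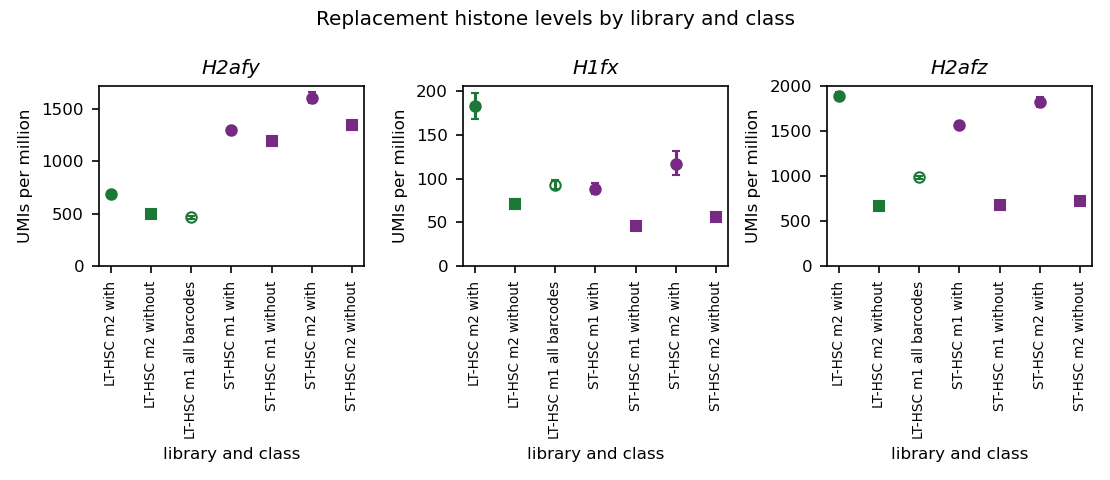
UMIs per 1e6 of H2afy, H1fx and H2afz by library and class, with 95% exact Poisson intervals (counting error only). Circles are cells with and squares cells without a UMI of Mki67 or Top2a, green is LT-HSC, purple is ST-HSC, m1 and m2 are mice 1 and 2, and the open circle is the sum of all barcodes of mouse 1 LT-HSC. H2afy lies lower in LT-HSC than in ST-HSC in both classes, while H2afz follows the class.

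The class difference itself depended on the gate for 6 genes. By an interaction term in edgeR it was larger in LT-HSC for 4 of 58 genes tested, against 0.23% of all genes tested, and lower (more negative) in LT-HSC for 2, against 0.656%. Hist1h2ap, Hist1h2ae, Hist1h1e and H2afx made up the 4, and Hist1h2bc and Hist1h2ac the 2. The LT-HSC side of this term rests on 1 library, so the gate and that library cannot be told apart.

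The mice differed in 1 gene above all. Hist1h2ap (chr13:21833026-21833507, minus strand), an H2A gene, lay at 26.7 and 19.8 CPM in mouse 2 LT-HSC and ST-HSC, against 147 and 83.9 CPM in those of mouse 1. The mice did not overlap. The log2 fold change was -2.11 (SE 0.20, adjusted p 1.03e-22 by edgeR with gate as a second term, which leaves 1 residual degree of freedom). With all barcodes, mouse 1 LT-HSC gave 112 CPM and the value was -2.17 (SE 0.21). Within cells with a UMI of Mki67 or Top2a, Hist1h2ap lay at 82.5 and 62.1 CPM in mouse 2 LT-HSC and ST-HSC, against 179 CPM in mouse 1 ST-HSC. Within cells without one it lay at 8.51 and 10.6 CPM, against 45.7 CPM. DESeq2 also called it lower.

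Hist1h2ap was 1 of 2 histone genes lower in mouse 2, against 0.182% of genes tested. None was higher, against 0.751%, and 0 were higher at an unadjusted p under 0.05. The other was Hist1h3e, at 6.49 and 9.95 CPM in mouse 2 LT-HSC and ST-HSC, against 34.7 and 16.7 CPM in those of mouse 1 (-0.78, SE 0.22, adjusted p 0.047 by edgeR). With all barcodes of mouse 1 LT-HSC, at 19.4 CPM, its value was -1.22 (SE 0.21). In that fit 4 genes were lower, against 0.427%, and none higher, against 0.365%. The other two were Hist1h3f, at 1.21 and 1.47 CPM in mouse 2 LT-HSC and ST-HSC, against 3.39 and 3.95 CPM in mouse 1 (-1.52, SE 0.35), and Hist1h1a, at 4.30 and 3.76 CPM, against 8.18 and 6.78 CPM (-0.97, SE 0.26). Hist1h3e and Hist1h3f are the genes that share most of their transcript ends. DESeq2 called 1 lower (Hist1h2ap), against 0.0155% of genes, and none higher, against 0.0259%, with 0 at an unadjusted p under 0.05.

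Over all 68 genes, 35 were lower in mouse 2 in both gates with all barcodes of mouse 1 LT-HSC, against 12.9% of the 13699 genes, and 11 were higher in both, against 32.2%. The share of cells with a UMI of Mki67 or Top2a moved with the mice in ST-HSC, at 13.1% in mouse 2 and 22.1% in mouse 1, and its part in this count was not tested. In cells without such a UMI the mouse test on kept cells again called 2 genes lower, both of those called in all cells. Leaving out Hist1h2ap, the replication-dependent share of histone UMIs was 8.32% in mouse 2 LT-HSC and 6.57% in mouse 2 ST-HSC, against 9.55% (9.36 to 9.75) in mouse 1 LT-HSC with all barcodes and 8.30% in mouse 1 ST-HSC. In kept cells of mouse 1 LT-HSC it was 5.61% (4.04 to 7.56), on 40 UMIs, so the order of the mice in LT-HSC turns with the barcodes used.

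**Figure D5:**
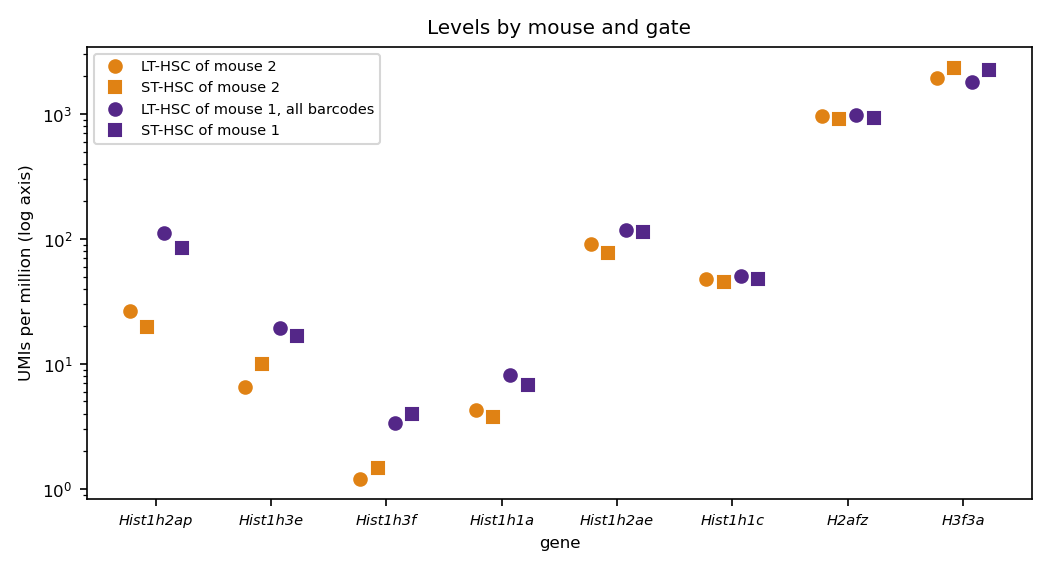
UMIs per 1e6 (log axis) of 8 histone genes in mouse 2 LT-HSC and ST-HSC and of mouse 1, with all barcodes for mouse 1 LT-HSC. Hist1h2ap lies at 26.7 and 19.8 CPM in mouse 2, against 112 and 83.9 CPM in mouse 1, while H2afz and H3f3a lie close together.

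The machinery around the histone genes was read from gene lists. Of 18 genes of histone RNA processing, 16 were tested and 9 rose in cells with a UMI of Mki67 or Top2a, none fell, and the median log2 fold change was 0.31, beside -0.03 over all genes tested. Slbp, which binds the stem-loop, rose by 1.45 (SE 0.06), Casp8ap2, a protein of the histone locus body, by 0.79 (SE 0.08), and Eri1, an exonuclease that acts on the stem-loop, by 0.73 (SE 0.06). Of 17 histone chaperones of replication, 16 rose, with a median of 0.99, among them Asf1b, an H3 and H4 chaperone, at 3.86 (SE 0.15), Nasp at 1.72 (SE 0.06) and Mcm2 at 1.53 (SE 0.06). Of 19 genes of replacement histone deposition, 8 rose, 2 fell (Ino80 at -0.24 and Ubn2 at -0.17) and the median was 0.12; over all genes tested 17.3% rose and 13.4% fell, so the 2 that fell are near that share. Cenpa, the centromeric H3 variant, rose by 2.07 (SE 0.07), Hjurp, its chaperone, by 0.77 (SE 0.05), and Anp32e, a chaperone of H2A.Z, by 0.73 (SE 0.06). All 24 S phase genes and all 20 G2 and M genes rose, with medians of 1.96 and 4.48, and the class was itself set by 2 cycle genes. Rrm2, a subunit of ribonucleotide reductase, rose by 5.32, Uhrf1, which reads DNA methylation behind the fork, by 3.09, and Birc5, of the chromosomal passenger complex, by 6.62.

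Between the gates few genes of these lists passed, and the number depended on the libraries and tool. Among all genes tested on kept cells 3.6% were higher in LT-HSC and 3.13% lower. A count of none or 1 in lists this short is near those shares. On kept cells, none of 17 tested in histone RNA processing, 19 in replacement deposition or 24 in S phase passed in either direction. Asf1b was higher in LT-HSC among the chaperones of replication (log2 fold change 0.83, SE 0.26), and Nusap1 (0.81, SE 0.24) and Cdk1 (0.66, SE 0.21) among the G2 and M genes. With all barcodes of mouse 1 LT-HSC, Asf1b, Nusap1 and Cdk1 were again higher, joined by Aurkb and Birc5 of the G2 and M list and by Tyms, Gins2 and Rrm2 of the S phase list, against 5.04% of all genes tested. With the mouse as a replicate block on kept cells, 1 S phase gene and 5 G2 and M genes were higher, against 3.54% of all genes tested. DESeq2 on kept cells called no gene of the 5 lists, with 0.145% of all genes called higher and 0.124% lower. Fits without 1 library leave 1 library in a gate, and the G2 and M genes that passed changed with the library left out. The medians on kept cells were -0.04, 0.07, -0.07, 0.17 and 0.23 in the order of the lists above, beside -0.02 over all genes tested.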

How the data were processed

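Single bone marrow cells of 2 mice were counted in 4 libraries with the 10x Chromium 3' v3 kit, per the labels' protocols. The deposited values are raw UMI counts per gene and barcode, made with Cell Ranger 3.1.0 and mm10, per the submitters' processing notes; the matrix headers name software 3.0.2. Barcode selection was not given in the sources used here.

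Cells were kept at 1000 or more genes, 2000 or more UMIs and at most 10% mitochondrial UMIs. Counts were summed per library, and per class (a UMI of Mki67 or Top2a, or none), and CPM are UMIs per 1e6 UMIs of the sum. Tests used edgeR 4.0.16 (quasi-likelihood F-test, TMM, filterByExpr, Benjamini-Hochberg over all genes tested, threshold 0.05), with the SE taken from the fold change and its F. The gate test had gate alone, the class test and interaction the library as a block over 3 libraries with 10 or more cells in each class, and the mouse test gate and mouse. DESeq2 1.42.0 was the alternative. Scripts were tested on simulated data, where the mouse test gave 31 false calls at adjusted p under 0.05, against 9 to 11 in each other test. The members and lists were chosen with earlier results of these data known. The genes named were, for each family and kind, up to 3 with most UMIs, up to 12 past the threshold per test and direction by fold change, and up to 3 per list by p; Hist1h1a, Hist1h3f, Hist2h2aa2, H2afj, H2afy2, Ino80, Ubn2, Aurkb and Gins2, outside this rule, were chosen after values were seen. Alternatives included other normalization, filters, class definitions, thinning and left-out libraries; those chosen after seeing the data were the class by G2 and M share, leaving out the 5% of cells with most UMIs, leaving out Hist1h2ap, and DESeq2 or the replicate block with all mouse 1 LT-HSC barcodes. Libraries of the same mouse number come from the same animal, so the numbers pair them; over 10882 genes their deviations correlated at r = 0.037 (kept cells).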

Additional observations from a re-analysis of the deposited data

Results flagged for a closer look

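For 6 histone genes the difference between cells with and cells without a UMI of Mki67 or Top2a itself differed between LT-HSC and ST-HSC, by an interaction term in edgeR with adjusted p under 0.05. The values below are the log2 difference of class differences, LT-HSC minus ST-HSC, and the LT-HSC side rests on mouse 2 alone.

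Hist1h2ap had 1.14 (SE 0.18), with log2 ratios of cells with to cells without of 3.28 in mouse 2 LT-HSC, against 1.97 and 2.55 in ST-HSC of mice 1 and 2. Hist1h2ae had 0.75 (SE 0.14), with 2.33 in LT-HSC, against 1.26 and 1.86 in ST-HSC. Hist1h1e had 0.573 (SE 0.15), with 0.80 in LT-HSC, against 0.11 and 0.30 in ST-HSC, and shares its transcript end with Hist1h2be. H2afx had 0.482 (SE 0.11), with 1.89 in LT-HSC, against 1.30 and 1.43 in ST-HSC.

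Hist1h2bc had -1.10 (SE 0.17), with -0.86 in LT-HSC, against 0.20 and 0.15 in ST-HSC, so its direction differed between the gates. Hist1h2ac had -0.736 (SE 0.17), with -1.25 in LT-HSC, against -0.58 and -0.55 in ST-HSC. In these 6 genes the ratio in mouse 2 LT-HSC lay outside the range of both ST-HSC ratios, that of the same mouse included. The genes were chosen by a test on these same ratios, so this is no separate support.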

How the results depend on the processing

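Percentages in brackets are the shares of all genes tested that were called, higher and then lower where 2 are given. Histone genes called by gate were 1 higher and 3 lower in LT-HSC of 59 tested (3.6% and 3.13%). They became 0 and 1 of 68 with DESeq2 (0.145% and 0.124%). In cells without a UMI of Mki67 or Top2a they were 0 and 6 of 44 (3.87% and 3.02%). Without the 5% of cells with most UMIs they were 0 and 5 of 50 (3.64% and 2.89%). With all mouse 1 LT-HSC barcodes 1 was lower (3.82%), also there with DESeq2 (1.99%) or the replicate block (4.87%). Leaving out 1 library leaves 1 library in a gate, and the calls changed with the library left out. The replicate block on kept cells gave 1 and 2 (3.54% and 3.22%), with the call of Hist1h3e lost. The 39 higher class calls of 58 tested (17.3%) became 14 of 33 after thinning to 2000 UMIs (5.08%). They became 15 of 46 without the 5% of cells with most UMIs (8.83%) and 27 of 58 with no replicate block (6.55%). DESeq2 gave 33 of 68 (6.45%), and the class by Mki67 alone gave 52 of 61 (16.8%). The 3 lower (13.4%) became 1 with DESeq2 (2.45%), 6 with the class by Top2a (13.6%) and 7 by S phase share (21.0%). They became 0 with no replicate block (0.902%), thinning (1.71%), the class by Mki67 (12.6%) or by G2 and M share (12.6%). Leaving out 1 library gave 37 to 41 higher (14.2% to 17.3%) and 2 to 4 lower (8.74% to 10.1%). The 2 genes lower in mouse 2 (0.182%) became 1 with RLE normalization (0.205%) or no filter on low counts (0.202%). They became 1 with DESeq2 (0.0155%), also with all barcodes (0.061%), and 4 with all barcodes in edgeR (0.427%). Without 1 library the mouse and interaction fits keep no residual degree of freedom and give no test; within LT-HSC alone Hist1h2ap stood at -2.46 and Hist1h3e at -2.42 on the log2 scale, and within ST-HSC alone at -2.09 and -0.75. The replication-dependent share in mouse 1 LT-HSC was 5.61% without Hist1h2ap, 11.1% with all barcodes and 9.55% with both; without Hist1h2ap it was 8.32% in mouse 2 LT-HSC, and 8.30% and 6.57% in ST-HSC of mice 1 and 2. Reversed directions concerned mostly genes with no call. By Mki67 alone the log2 fold changes were 0.33 for H1f0, 0.102 for H3f3b, 0.56 for Hist1h1c, 0.86 for Hist1h2bc, 0.63 for Hist1h2be and 0.0929 for Hist3h2ba. By G2 and M share they were 0.226, 0.0349, 0.584, 1.45, 0.613 and 0.142 in that order. After thinning they were 0.366 for H1f0, 0.0593 for Hist1h1c and 0.27 for Hist1h2bc. Without the 5% of cells with most UMIs they were 0.0949 for Hist1h1c, 0.412 for Hist1h2bc, -0.067 for Hist1h1d and -0.239 for Hist1h1e. Without cells of other types they were 0.0708 for Hist1h2bc and 0.00524 for Hist1h2be. Leaving out 1 library gave -0.0973 to 0.0267 for Hist1h1c, -0.291 to 0.22 for Hist1h2bc and -0.0637 to 0.163 for Hist1h2be. Hist1h2be gave 0.0277 with DESeq2, 0.319 by 2 or more UMIs and 0.0425 with no replicate block, and Hist1h4h gave -0.22 by S phase share. By gate, Hist1h3e gave 0.091 with all barcodes, 0.10 with DESeq2 on them, and -1.28 to 1.24 with 1 library left out. The cause was not tested. In mouse 1 LT-HSC 3 counts amount to 26.0 CPM, so values near or below that level rest on few UMIs.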
